A study of Mus musculus with 14 samples.

Results

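The transcripts of 10 genes were followed in sorted mouse lung macrophages after bleomycin injury: 7 matrix metalloproteinases (Mmp2, Mmp8, Mmp9, Mmp12, Mmp13, Mmp14 and Mmp19) and 3 tissue inhibitors of metalloproteinases (Timp1, Timp2 and Timp3). They were taken by gene symbol from a table of 43432 genes, in which each has 1 row, and all 10 were among the 17390 genes tested. The cells were SiglecF-positive and CD11c-positive, a surface phenotype of alveolar macrophages, and were separated by their surface level of MHC class II (MHCII), the complex that presents peptides to helper T cells. They came from male 129S1 mice aged 10 to 12 weeks that received bleomycin, a DNA-damaging drug that injures the lung and is followed by fibrosis, at a labelled dose of 3 U/k into the trachea, or water. The 5 groups were control MHCII-low cells, from mice given water (2 libraries, with replicate numbers 1 and 3), MHCII-low cells 2 and 4 weeks after bleomycin, and MHCII-high cells 2 and 4 weeks after bleomycin (3 libraries each). No allele or transgene is named for any group. MHCII-high cells of control mice were not analysed here, so bleomycin was compared with water in MHCII-low cells alone. The labels do not say whether replicates are separate mice or pools, and p-values therefore measure the spread between these libraries, which may in part be technical.

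Matrix metalloproteinases (MMPs) are zinc-dependent proteases that cut collagens, elastin, fibronectin and other proteins outside the cell. They are made as inactive precursors and are opened by other proteases, and TIMPs block them by binding the active site. Mmp12 is macrophage elastase, Mmp8 and Mmp13 are collagenases, and Mmp2 and Mmp9 are gelatinases. Mmp14 is anchored in the cell membrane and activates the Mmp2 precursor, with Timp2 as the bridge between them, so Timp2 both helps activate Mmp2 and inhibits MMPs. Mmp19 cuts basement membrane proteins and is made by macrophages among other cells. Transcript levels say nothing of how much protease is active.

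Levels are given as normalized counts, the reads of a gene after scaling of each library by the authors. The libraries held 15106415 to 88059632 recovered reads, of which mitochondrial ribosomal RNA took 3.12% to 29.0%. This share differed between groups that are compared below, at 21.7% to 24.1% in controls and 22.5% to 26.2% in 2-week MHCII-high cells against 3.42% to 18.3% in 2-week MHCII-low cells. It was 3.12% to 23.1% in 4-week MHCII-low and 8.12% to 29.0% in 4-week MHCII-high cells. With the share as a covariate, the calls of the 10 genes held except those of Timp2 by MHCII level at 2 weeks (adjusted p = 0.155) and in MHCII-high cells from 2 to 4 weeks (adjusted p = 0.0606). The markers fixed for alveolar macrophages were present in every library. Itgax, which encodes CD11c, was at 25185 to 44133 normalized counts. Siglecf was at 6461 to 9551 in the 8 MHCII-low libraries and at 3056 to 4358 in the 6 MHCII-high libraries. Because these are bulk samples, fewer cells of a type and less RNA per cell cannot be told apart.

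Mmp19 was the most abundant MMP transcript in every library, and Timp2 the most abundant TIMP transcript. Levels were compared between genes per kilobase of exon, using the exon length deposited with the table. On this scale Mmp19 averaged 10704 normalized counts per kilobase over the 14 libraries, which ranked 85 of the 17306 tested genes with a length. Timp2 followed at 2501 per kilobase (rank 438), Mmp12 at 1632 (rank 735) and Mmp8 at 1308 (rank 967). Mmp14 averaged 327 per kilobase and Mmp2 71.2. Timp3, Timp1, Mmp9 and Mmp13 were the lowest, at 44.7, 24.8, 20.1 and 8.33 per kilobase. The order depended on the length used for Mmp12, whose deposited exon length is 7237 bases and whose longest coding transcript in GENCODE M21 is 3607 bases. With that transcript as the length, a choice made after seeing the data, Mmp12 was at 3275 per kilobase, above Timp2 at 2627, and Timp3 at 77.1 was above Mmp2 at 70.3.

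**Figure D1:**
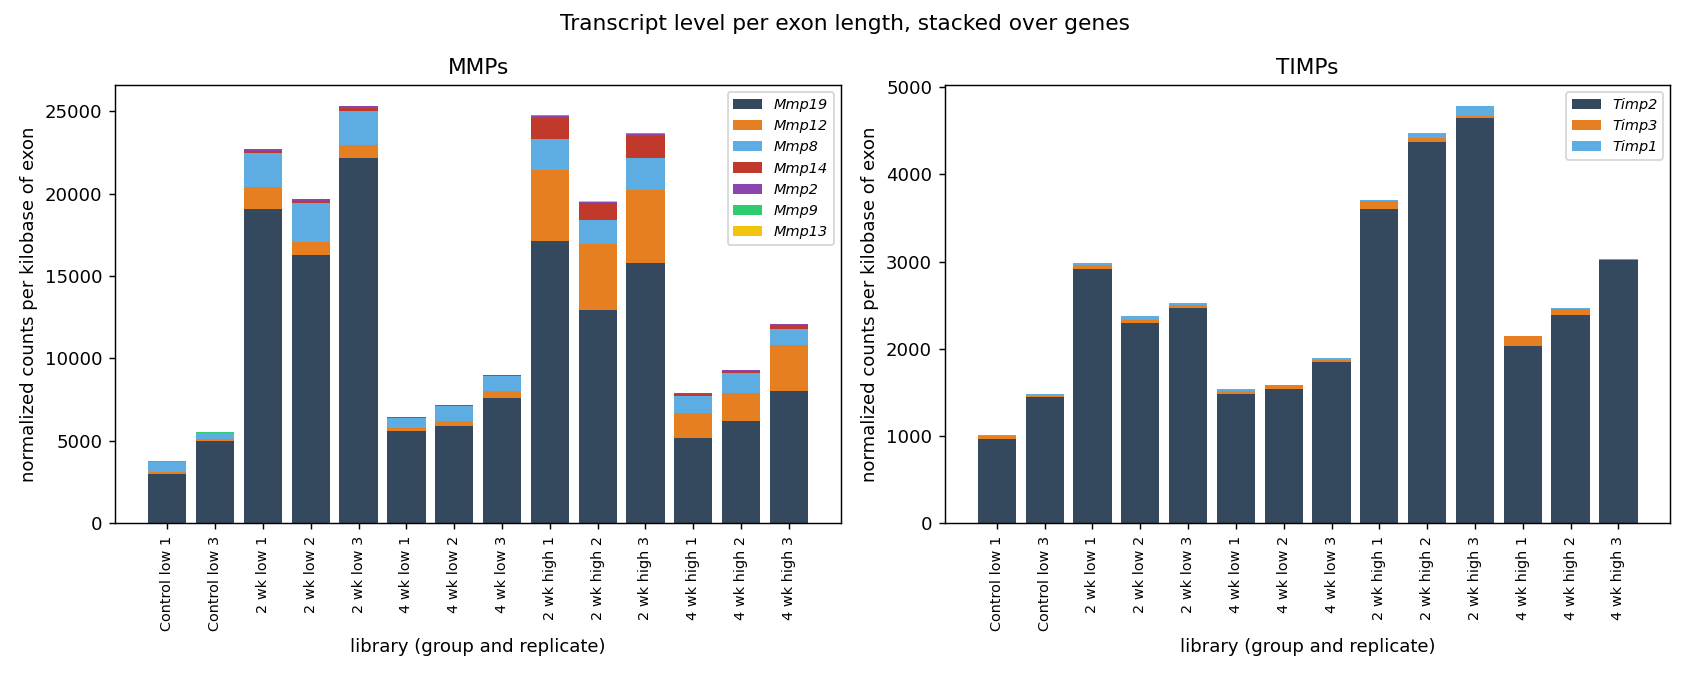
Stacked bars show normalized counts per kilobase of exon in each of the 14 libraries, named by group (control, 2 or 4 weeks after bleomycin, MHCII-low or MHCII-high) and replicate, for the 7 MMPs on the left and the 3 TIMPs on the right. Mmp19 makes up most of every MMP bar, the Mmp12 share is larger in the MHCII-high libraries, and Timp2 makes up 94.7% to 99.8% of every TIMP bar.

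With the deposited exon lengths, the summed MMP transcripts per kilobase had overlapping ranges in MHCII-high and MHCII-low cells at 2 weeks, and their makeup differed. The sum was 22583 ± 2825 (SD, n = 3) in 2-week MHCII-low and 22674 ± 2779 (n = 3) in 2-week MHCII-high cells, against 4638 ± 1262 (n = 2) in controls. At 4 weeks it was 7540 ± 1306 in MHCII-low and 9773 ± 2122 in MHCII-high cells (n = 3 each). Mmp12 made up 1.44% to 5.84% of the sum in the 8 MHCII-low libraries and 17.3% to 23.2% in the 6 MHCII-high libraries, so the ranges did not overlap. Mmp19 made up 79.7% to 90.6% of it in the MHCII-low and 65.0% to 69.1% in the MHCII-high libraries. The ratio of summed MMP to summed TIMP transcripts, which does not depend on how a library was scaled, was 3.70 and 3.75 in the controls and 7.61 to 10.0 in 2-week MHCII-low cells. It was 4.36 to 6.70 in 2-week MHCII-high, 4.20 to 4.75 in 4-week MHCII-low and 3.69 to 3.99 in 4-week MHCII-high cells. With the longest coding transcripts as lengths, the sums at 2 weeks were 26781 ± 2953 for the MHCII-high and 23616 ± 2840.4 for the MHCII-low group (SD, n = 3 each), and their ranges still overlapped. The Mmp12 share was then 29.8% to 37.8% in the MHCII-high and 2.84% to 11.04% in the MHCII-low libraries. The ratio was 4.06 to 4.67 in 4-week MHCII-high cells, above both controls at 3.59 and 3.61. These shares and ratios are descriptions and were not tested.

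Bleomycin against water was asked in MHCII-low cells. At 2 weeks 6 of the 10 genes had risen, Mmp19, Mmp8, Mmp2, Mmp12, Mmp14 and Timp2, and none had fallen. Of all 17390 genes tested, 1.91% were called in this comparison and 1.48% were called as higher (limma, adjusted p under 0.05). The libraries of both groups did not overlap for 35.3% of all genes, so a lack of overlap alone is common at this number of libraries. The median log2 fold change of the 10 genes was 1.67, against -0.09 for all genes tested.

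Mmp19 (chr10:128790953-128800824, plus strand) was at 10184 and 17093 normalized counts in the controls and at 65125, 55494 and 75693 in 2-week MHCII-low cells. The 2-week libraries were all above the controls, and the increase was 4.92-fold (log2 2.30 ± 0.23, adjusted p = 1.907e-06). At 4 weeks the MHCII-low libraries were at 18986, 20166 and 25908, between those ranges. MHCII-high cells were at 58493, 44083 and 53788 at 2 weeks and at 17547, 21181 and 27283 at 4 weeks, and their ranges overlapped those of the MHCII-low cells at both times. In GENCODE M21 the exons of Mmp19 overlap those of Tmem198b and of the antisense gene Gm47093, both on the opposite strand, and the sources used here do not say whether counting used strand, so reads in the shared stretches cannot be assigned. Tmem198b itself was at 325 to 719.5 normalized counts in all 14 libraries.

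Mmp8 (chr9:7558456-7568485, plus strand), the neutrophil collagenase, was at 1384 and 913 normalized counts in the controls and at 5068, 5819 and 5062 in 2-week MHCII-low cells. It had increased 4.71-fold (log2 2.24 ± 0.22, adjusted p = 1.907e-06), with no overlap between the groups. It was at 1517, 2317 and 2092 in 4-week MHCII-low cells, at 4594, 3546 and 4761 in 2-week MHCII-high and at 2512, 2958 and 2369 in 4-week MHCII-high cells. The 5 groups did not overlap at any step of their order, from 2-week MHCII-low at the top, through 2-week MHCII-high, 4-week MHCII-high and 4-week MHCII-low, to control. The step between the 4-week groups was narrow, from 2369 to 2317. The share of all genes that separate at every step was not counted. Because neutrophils also make Mmp8, the neutrophil list is given beside it. Its 10 genes summed to 4249 to 7872 normalized counts in the controls, 8385 to 10625 in 2-week MHCII-low, 5270.0 to 6828 in 4-week MHCII-low, 7057 to 10050.2 in 2-week MHCII-high and 4647 to 7580.0 in 4-week MHCII-high cells. Cxcr2, a chemokine receptor in that list, was 1 of 8 tested to pass at 2 weeks against control (log2 2.36 ± 0.41, adjusted p = 0.001889), from 1110 and 584 to 4784, 3460.2 and 4293. The median of those 8 was 0.10 on the log2 scale, against -0.09 for all genes. Without Cxcr2 the list summed to 3665 to 6762 in the controls and 4925 to 5842 in 2-week MHCII-low cells, which overlap. Cxcr2 was left out after its value was seen. Most of the remaining sum was Csf3r, at 6456 and 3482 in the controls and 5359, 4776 and 4530 in 2-week MHCII-low cells. The sum therefore says little of the other markers. The granulocyte marker Ly6g was at 0 in 11 of the 14 libraries and at 1.2, 2.2 and 22.0 in the others. Other markers of the list went different ways, without passing the test. S100a8 was at 111.4 and 107.6 in the controls and 226.0, 130.6 and 321.6 in 2-week MHCII-low cells. It was at 386.9, 396.5 and 328.4 in 2-week MHCII-high cells. Mpo was at 24.9 and 37.9 in the controls and 0, 1.6 and 0 in 2-week MHCII-low cells. The part of neutrophil RNA in the Mmp8 result was not tested.

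Mmp2 (chr8:92827291-92853420, plus strand) was low in the controls, at 49.1 and 39.6 normalized counts, and at 393.8, 323.3 and 387.6 in 2-week MHCII-low cells. This was an 8.16-fold increase (log2 3.03 ± 0.48, adjusted p = 0.0007546). The 4-week MHCII-low libraries were at 154.4, 139.2 and 183.4, above both controls and below all 2-week libraries. MHCII-high cells were at 487.8, 180.2 and 397.0 at 2 weeks, the widest spread of any group for this gene, and at 104.1, 80.0 and 109.5 at 4 weeks. Fibroblasts are a usual source of Mmp2, and the 10 fibroblast markers summed to 308 to 324 in the controls, 626 to 866 in 2-week MHCII-low and 241 to 338 in 4-week MHCII-low cells, then 195 to 918 in 2-week MHCII-high and 32.9 to 356 in 4-week MHCII-high cells. Col1a1, a fibrillar collagen chain, was at 15.2 and 10.3 in the controls and 96.2, 82.8 and 170.7 in 2-week MHCII-low cells, but 0 of the 10 fibroblast markers passed the test there (Col1a1 adjusted p = 0.3842, unadjusted p = 0.04664). In 4-week MHCII-low cells, where Mmp2 was above both controls in all 3 libraries, markers of the list went different ways. Col1a1 was at 6.0, 0 and 1.1, below both controls. Pdgfra was at 75.5, 121.6 and 123.7, above its controls at 52.6 and 56.8. The part of fibroblast RNA in the Mmp2 levels at either time was not tested.

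The remaining increases at 2 weeks were in genes that also differed by MHCII level. Mmp12 rose 9.05-fold over control in MHCII-low cells (log2 3.18 ± 0.32, adjusted p = 2.281e-06) and Mmp14 rose 6.53-fold (log2 2.71 ± 0.45, adjusted p = 0.00137). Timp2 rose 2.16-fold (log2 1.11 ± 0.20, adjusted p = 0.003279). Without control replicate 1, which leaves a single control library assumed to vary like the others, Mmp14 (log2 2.27, adjusted p = 0.0604) and Timp2 (log2 0.82, adjusted p = 0.189) no longer passed.

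At 4 weeks after bleomycin 0 of the 10 genes passed the adjusted threshold against control in MHCII-low cells by limma. In that comparison 0.046% of all genes were called, and 1065 genes, or 6.12%, had an unadjusted p under 0.05. Among the 10, unadjusted limma p was that low for Mmp12 (0.0002912), Mmp2 (0.001071), Mmp8 (0.001831), Mmp19 (0.005646) and Timp2 (0.03699), all higher. It was also under 0.05 for Mmp13 (0.03918), which was lower, and not for Mmp9, Mmp14, Timp1 and Timp3. On recovered reads edgeR called 0 of the 10 and DESeq2 called 1, Mmp2, at an adjusted p of 0.01577. The largest differences by adjusted p were those of Mmp12 (log2 1.39 ± 0.32, adjusted p = 0.1948) and Mmp2 (log2 1.82 ± 0.48, adjusted p = 0.3072). Mmp14 was close to its control level (log2 -0.20 ± 0.45, adjusted p = 0.99). The 2-week and 4-week comparisons share the same 2 control libraries.

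**Figure D2:**
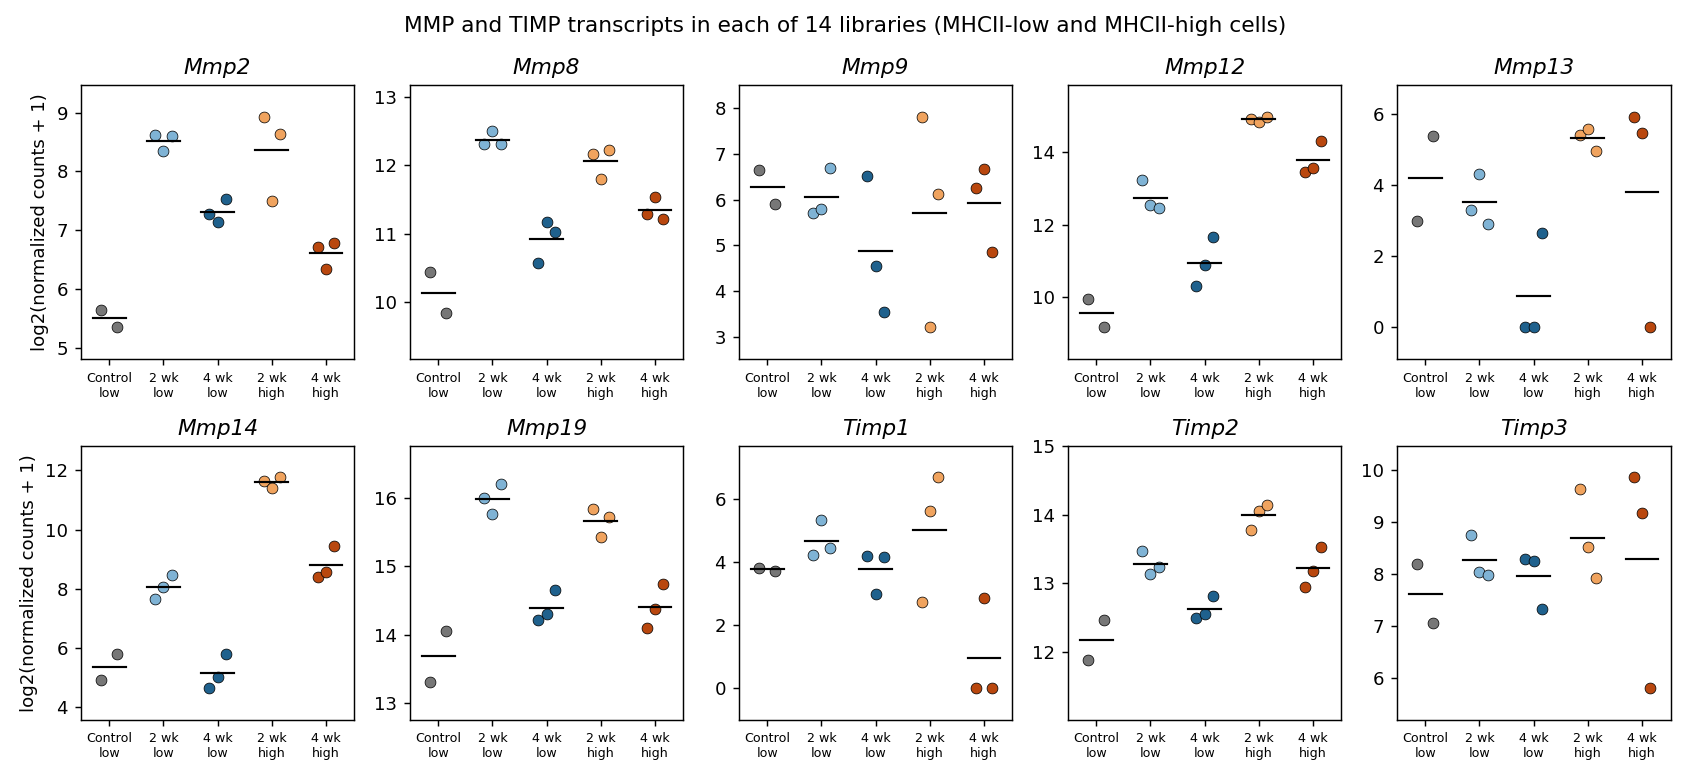
Each panel plots log2(normalized counts + 1) of 1 gene, with a point per library and a line at the group mean, for control MHCII-low (n = 2) and 2-week and 4-week MHCII-low and MHCII-high cells (n = 3 each). Mmp2, Mmp8 and Mmp19 are high at 2 weeks at both MHCII levels, Mmp12 and Mmp14 are higher in MHCII-high than in MHCII-low cells at each time, and Mmp9, Mmp13, Timp1 and Timp3 have wide, mostly overlapping groups.

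MHCII-high cells were then compared with MHCII-low cells from bleomycin-treated lungs. Mmp14 and Mmp12 were higher in MHCII-high cells at both times, and Timp2 was higher at 2 weeks and in the mean of both times. None of the 10 genes was called lower. At 2 weeks 3 of the 10 were called higher, where 2.29% of all genes tested were called higher and 2.87% in either direction, and 21.1% had no overlap between the groups. At 4 weeks 2 of the 10 were called higher, against 1.96% of all genes higher and 2.5% in either direction, with 16.4% without overlap. For the mean of both times the count was 3 of 10, against 5% of all genes higher and 7.21% in either direction.

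The promoter windows of Mmp12 and Mmp14, which differed by MHCII level at both times, and of Mmp13 are shown because several MMP promoters are known to carry a TGANTCA element, which AP-1 (Jun and Fos) dimers bind, near a TATA box. The windows are the 250 bases before a start in RefSeq (build GRCm38.p6), 5′ to 3′, with TGANTCA and TATAAA matches in capitals. Both strands were searched for TATAAA, while TGANTCA reads the same on both strands, and a match to one motif cannot overlap a match to the other. The Mmp12 windows are chr9:7344147-7344396 and chr9:7347124-7347373, the second of which lies inside the span given for the gene. The Mmp14 window is chr14:54431348-54431597 and the Mmp13 window is chr9:7272264-7272513, all on the plus strand.
Mmp12, upstream start: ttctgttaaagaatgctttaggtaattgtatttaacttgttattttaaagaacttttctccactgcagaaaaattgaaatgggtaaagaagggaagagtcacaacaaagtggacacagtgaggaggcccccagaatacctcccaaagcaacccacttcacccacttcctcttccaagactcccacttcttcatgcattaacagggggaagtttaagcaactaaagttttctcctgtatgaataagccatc
Mmp12, start within the gene: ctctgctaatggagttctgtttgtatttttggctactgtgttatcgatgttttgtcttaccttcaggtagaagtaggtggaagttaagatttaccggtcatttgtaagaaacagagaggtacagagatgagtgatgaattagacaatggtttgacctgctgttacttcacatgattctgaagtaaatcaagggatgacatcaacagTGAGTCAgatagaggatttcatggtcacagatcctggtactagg
Mmp14: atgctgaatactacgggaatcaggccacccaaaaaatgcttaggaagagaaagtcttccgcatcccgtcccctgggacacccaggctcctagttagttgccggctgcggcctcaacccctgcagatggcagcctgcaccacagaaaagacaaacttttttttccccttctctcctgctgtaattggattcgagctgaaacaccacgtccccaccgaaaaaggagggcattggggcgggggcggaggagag
Mmp13: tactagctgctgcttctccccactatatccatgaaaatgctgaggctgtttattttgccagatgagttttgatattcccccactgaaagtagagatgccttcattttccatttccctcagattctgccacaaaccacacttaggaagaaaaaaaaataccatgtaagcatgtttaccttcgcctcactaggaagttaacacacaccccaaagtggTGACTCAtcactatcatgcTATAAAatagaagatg
TGANTCA was found in 2217 of 32851 windows of this length (6.75%) and TATAAA in 4063 (12.4%). In the Mmp13 window TGANTCA begins 35 bases and TATAAA 16 bases before the start. In the Mmp12 window within the gene TGANTCA begins 44 bases before the start, and neither motif is in the upstream Mmp12 window or the Mmp14 window. RefSeq windows matched 7 of the 10 genes, with none for Mmp2, Mmp9 and Mmp19, and neither motif is in those of Mmp8, Timp1, Timp2 and Timp3. A match is a description of the letters and not a measured binding site.

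Mmp14 (chr14:54431612-54441265, plus strand) had the largest fold by MHCII level of the 10 genes at 2 weeks. It was at 201.4, 264.3 and 351.3 normalized counts in 2-week MHCII-low cells and at 3230, 2738 and 3484 in 2-week MHCII-high cells, an 11.8-fold difference (log2 3.56 ± 0.40, adjusted p = 1.414e-05). At 4 weeks it was at 24.0, 31.4 and 54.4 in MHCII-low and at 335.1, 381.3 and 698.6 in MHCII-high cells, a 12.6-fold difference (log2 3.66 ± 0.40, adjusted p = 5.783e-06). The groups did not overlap at either time. Controls were at 29.2 and 54.2, within the range of the 4-week MHCII-low libraries, and 4-week MHCII-high and 2-week MHCII-low libraries overlapped.

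Mmp12 (chr9:7344381-7369499, plus strand) was at 9596, 5917 and 5680.1 normalized counts in 2-week MHCII-low cells and at 31119, 29129 and 32295 in 2-week MHCII-high cells. The difference was 4.49-fold (log2 2.17 ± 0.29, adjusted p = 9.586e-05). At 4 weeks MHCII-low cells were at 1277, 1892 and 3256 and MHCII-high cells at 11137, 12179.8 and 20314, a 7.05-fold difference (log2 2.82 ± 0.29, adjusted p = 2.196e-06). The controls were at 994 and 577. No neighbouring groups overlapped, in the order 2-week MHCII-high, 4-week MHCII-high, 2-week MHCII-low, 4-week MHCII-low and control. How many of all genes separate in this way was not counted. The exons of Mmp12 overlap those of Mmp1b on the opposite strand, and Mmp1b was at 0 in all 14 libraries.

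Timp2 (chr11:118301069-118355740, minus strand) was at 3749 and 5630.3 normalized counts in the controls, at 11348, 8954 and 9619 in 2-week MHCII-low and at 14029, 17049 and 18084 in 2-week MHCII-high cells. The 2-week difference by MHCII level was 1.64-fold, with no overlap (log2 0.72 ± 0.18, adjusted p = 0.03455). At 4 weeks the MHCII-low libraries were at 5764, 6006 and 7214 and the MHCII-high libraries at 7911, 9307 and 11771, which did not overlap but missed the threshold (log2 0.60 ± 0.18, adjusted p = 0.09418). For the mean of both times Timp2 was 1.58-fold higher in MHCII-high cells (log2 0.66 ± 0.13, adjusted p = 0.002412), and this call held in all 25 alternatives. The 2-week call was lost in 10 of the 25, among them edgeR and the omission of 2-week MHCII-low replicate 2 or 3 or of any 2-week MHCII-high library, with an adjusted p of up to 0.155.

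Mmp19, Mmp8 and Mmp2 did not pass the test by MHCII level at either time, although the libraries of both levels did not overlap for Mmp8 at either time or for Mmp2 at 4 weeks. For Mmp19 the log2 difference was -0.33 ± 0.20 at 2 weeks (adjusted p = 0.4831) and 0.01 ± 0.20 at 4 weeks (adjusted p = 0.9945). For Mmp8 it was -0.31 ± 0.20 (adjusted p = 0.487) and 0.42 ± 0.20 (adjusted p = 0.3208). For Mmp2 it was -0.17 ± 0.43 (adjusted p = 0.909) and -0.70 ± 0.43 (adjusted p = 0.4796).

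Markers of other macrophage origins and cell types differed along with the MHCII level. The 11 markers of monocyte-derived or interstitial macrophages summed to 10614 to 12636 normalized counts in the controls, 14368 to 16064 in 2-week MHCII-low and 12217 to 12989 in 4-week MHCII-low cells. In MHCII-high cells they summed to 46625 to 61613 at 2 weeks and 27287 to 28788 at 4 weeks. Of the 10 of these markers tested, 8 were higher in MHCII-high cells at each time, among them the chemokine receptors Ccr2 and Cx3cr1 and the complement genes C1qa, C1qb and C1qc. Of the 10 alveolar macrophage markers 6 were lower in the mean of both times, Siglecf, Marco, Pparg, Car4, Chil3 and Krt19. The 10 summed to 273461 to 358413 in MHCII-high libraries and to 354378 to 497896 in MHCII-low libraries after bleomycin, which overlap. The MHCII-low controls, at 332553 and 296450, lay within the MHCII-high range. Chil3 alone was at 163234 to 303547 in the 14 libraries. The 8 dendritic cell markers summed to 970 to 2176 in MHCII-high and 90.6 to 310.0 in MHCII-low libraries, controls included. The 8 lymphocyte markers summed to 550.2 to 1232 and 54.4 to 372. The 8 epithelial markers summed to 11016 to 20956 in MHCII-high and 9838 to 32341 in MHCII-low libraries, which overlap, but single genes differed. At 2 weeks 3 of the 8 were higher in MHCII-high cells, Sftpc, Sftpb and Sftpa1, and at 4 weeks 2 were, Sftpc and Hopx. In the mean of both times Scgb1a1, a club cell product, was lower (log2 -1.97 ± 0.52, adjusted p = 0.02113). The part of such cells in the Mmp12, Mmp14 and Timp2 differences was not tested.

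**Figure D3:**
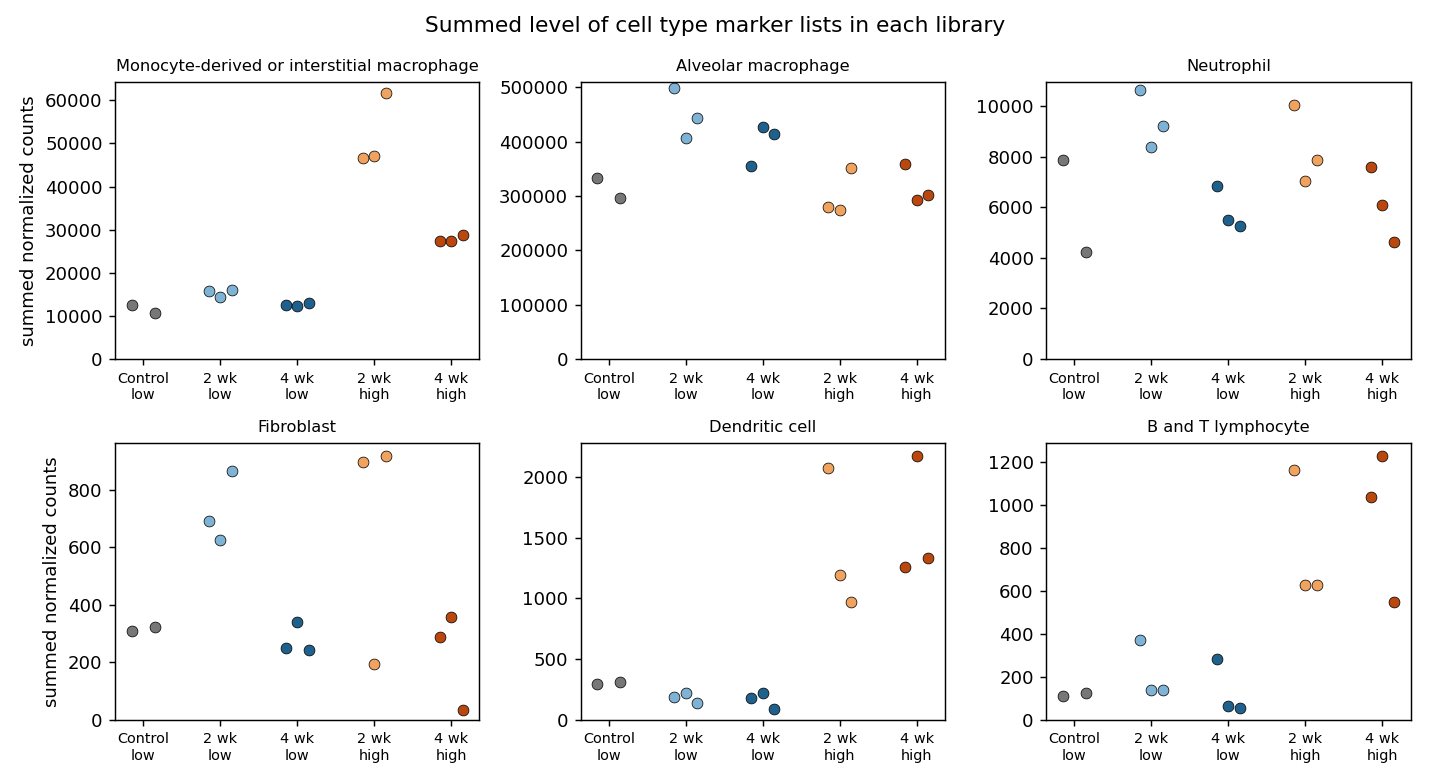
Each panel plots the summed normalized counts of 1 list of cell type markers, with a point per library, for control MHCII-low (n = 2) and 2-week and 4-week MHCII-low and MHCII-high cells (n = 3 each). The monocyte-derived or interstitial macrophage sum lies at 27287 or more in the MHCII-high libraries and at 16064 or less in the MHCII-low libraries, and the dendritic cell and lymphocyte sums also lie higher in MHCII-high libraries.

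The time after bleomycin was compared within each MHCII level. From 2 to 4 weeks in MHCII-low cells 4 of the 10 genes fell, Mmp14, Mmp12, Mmp19 and Mmp8, where 0.748% of all genes were called lower and 0.857% in either direction. Mmp14 was 7.50-fold lower at 4 weeks (log2 -2.91 ± 0.40, adjusted p = 0.0002951) and Mmp12 3.45-fold lower (log2 -1.79 ± 0.29, adjusted p = 0.001447). Mmp19 was 3.02-fold lower (log2 -1.60 ± 0.20, adjusted p = 0.0001099) and Mmp8 2.73-fold lower (log2 -1.45 ± 0.20, adjusted p = 0.0002475). The log2 difference of Mmp2 was -1.21 ± 0.43 (adjusted p = 0.3386) and that of Timp2 -0.66 ± 0.18 (adjusted p = 0.1222).

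In MHCII-high cells 3 of the 10 genes fell over the same time, where 0.759% of all genes were called lower and 1.07% in either direction. Mmp14 was 7-fold lower (log2 -2.81 ± 0.40, adjusted p = 0.001789), Mmp19 2.39-fold lower (log2 -1.26 ± 0.20, adjusted p = 0.004716) and Timp2 1.71-fold lower (log2 -0.77 ± 0.18, adjusted p = 0.04079). The Timp2 call was lost in 13 of 25 alternatives, with an adjusted p of up to 0.141. The next smallest adjusted p-values were those of Mmp2 (log2 -1.74 ± 0.43, adjusted p = 0.05123), Mmp12 (log2 -1.14 ± 0.29, adjusted p = 0.05746), Mmp8 (log2 -0.71 ± 0.20, adjusted p = 0.07984) and Timp1 (log2 -4.06 ± 1.14, adjusted p = 0.08398). The third 4-week MHCII-high library had the highest Mmp12, Mmp14, Mmp19 and Timp2 of its group, and without it Mmp12 and Mmp2 passed as well, for 5 of the 10 genes.

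Whether the difference by MHCII level changed with time was tested as an interaction, the 4-week difference minus the 2-week difference. None of the 10 genes passed, and 0% of all genes were called by limma, with 987 genes (5.68%) at an unadjusted p under 0.05. By edgeR 0 genes passed and by DESeq2 60 genes, of which 0 were among the 10. The smallest p among the 10 was that of Mmp8 (log2 0.73 ± 0.28, unadjusted p = 0.0159, adjusted p = 0.7108). The interaction was 0.10 ± 0.57 for Mmp14 and 0.65 ± 0.41 for Mmp12 on the log2 scale, so a change of the MHCII difference over time of either sign was within the error for Mmp14.

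**Figure D4:**
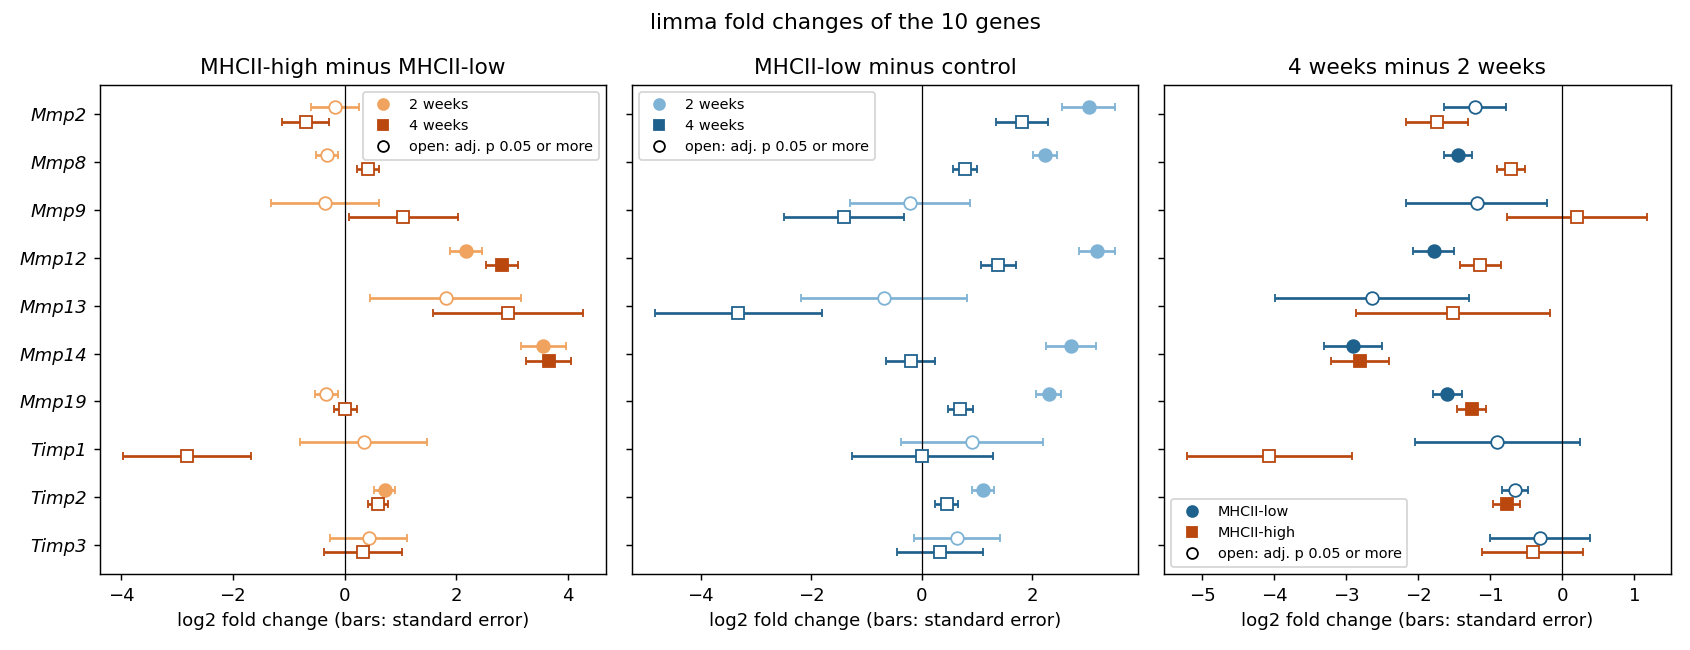
Points show the limma log2 fold change of each of the 10 genes with its standard error as a bar, for MHCII-high minus MHCII-low (left), MHCII-low minus control (middle) and 4 weeks minus 2 weeks (right), and open symbols mark an adjusted p of 0.05 or more. Mmp14 and Mmp12 lie to the right of 0 at both times in the left panel, 6 genes are filled at 2 weeks in the middle panel, and every filled point in the right panel lies to the left of 0.

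The other 4 genes, Mmp9, Mmp13, Timp1 and Timp3, were called by limma with all libraries in none of the 8 comparisons, and the first 3 rest on few reads. Mmp9 was at 99.7 and 58.5 normalized counts in the controls, 51.5, 54.1 and 102.4 in 2-week MHCII-low, 90.9, 22.5 and 10.7 in 4-week MHCII-low, 224.8, 8.2 and 68.6 in 2-week MHCII-high and 74.9, 100.4 and 28.0 in 4-week MHCII-high cells. All 5 groups overlapped, and the gene rested on 10 to 437 reads per library. Mmp13, for which 0 to 81 reads were counted, was at 41.7, 47.5 and 30.4 in 2-week MHCII-high cells and at 8.9, 19.1 and 6.6 in 2-week MHCII-low cells, without overlap (log2 1.81 ± 1.35, adjusted p = 0.5768). At 4 weeks it was at 60.4, 43.9 and 0 in MHCII-high and at 0, 0 and 5.3 in MHCII-low cells, and at 7.0 and 41.3 in the controls. The 4-week difference (log2 2.92 ± 1.35, adjusted p = 0.3082) passed at an adjusted p of 0.02485 without the third 4-week MHCII-high library, the one at 0. In the mean of both times Mmp13 (log2 2.37 ± 0.95, adjusted p = 0.1477) passed without that library and by DESeq2, with a smallest adjusted p of 0.009647.

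Timp1, an inhibitor usually induced in injured tissue, stayed low in these cells. It was at 13.2 and 12.1 normalized counts in the controls, 17.9, 39.8 and 20.9 in 2-week MHCII-low, 17.2, 6.9 and 17.1 in 4-week MHCII-low and 5.7, 48.3 and 102.5 in 2-week MHCII-high cells. In 4-week MHCII-high cells it was at 0, 6.3 and 0, where the limit that 0 reads allow, 3 reads, equals 6.24 normalized counts in the first library and 3.65 in the third. Limits of this kind cover counting error alone. The log2 difference by MHCII level was 0.34 ± 1.14 at 2 weeks (adjusted p = 0.9346) and -2.83 ± 1.14 at 4 weeks (adjusted p = 0.2386). Timp1 passed in MHCII-high cells at 4 against 2 weeks by DESeq2 and without the second 4-week MHCII-high library, the one with reads, with a smallest adjusted p of 0.02214. In GENCODE M21 Timp1 lies inside Syn1 on the opposite strand, without overlapping exons. Syn1 was at 634 to 1924 normalized counts.

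Timp3, which binds to the matrix, was at 289.4 and 131.7 in the controls, 429.6, 262.7 and 252.7 in 2-week MHCII-low and 312.2, 303.9 and 158.9 in 4-week MHCII-low cells. In MHCII-high cells it was at 797.0, 364.5 and 239.8 at 2 weeks and 926.1, 575.8 and 54.8 at 4 weeks. All neighbouring groups overlapped, and the third 4-week MHCII-high library was the lowest of the 14. Timp3 lies inside Syn3 on the opposite strand, with overlapping exons, and Syn3 was at 0 to 53.0.

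Genes whose pattern over the 14 libraries was most like that of each called gene were found by the Pearson correlation of log2(value + 1), among 9993 tested genes with a mean of at least 100 normalized counts. The libraries fall into 5 groups and share their scaling, so r is given as a description. Nearest to Mmp12 were Colec12, a scavenger receptor (r = 0.986), and C1qb, a chain of complement C1q (r = 0.985). Nearest to Mmp14 were Hal, histidine ammonia-lyase (r = 0.989), and Slfn5 (r = 0.988). Nearest to Timp2 were Xdh, xanthine dehydrogenase (r = 0.967), and Fn1, fibronectin (r = 0.953). Mmp2 was most like Ctsk, the collagen-cutting cathepsin K (r = 0.912), and Gpnmb (r = 0.908). Mmp8 was most like Sc5d, a sterol synthesis enzyme (r = 0.967), and Cyb5b (r = 0.961), and Mmp19 was most like Atp6v1a, a subunit of the lysosomal proton pump, and Aldoc, an aldolase (r = 0.956 each).

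Related protease genes were read from lists, with counts over the tested genes of each. Among 18 other MMPs, TIMPs and Reck, 8 were tested, and 1 was higher in MHCII-high cells in the mean of both times. This was Mmp25, a membrane-anchored MMP, which was at 0 to 32.5 normalized counts in the MHCII-low libraries and at 8.5 to 335.5 in the MHCII-high libraries (log2 4.09 ± 0.83, adjusted p = 0.003371). The median of those 8 genes was -0.69 on the log2 scale, against 0.02 for all genes tested, and 0 of the 8 passed at 2 weeks against control.

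Of 8 ADAM proteases, which shed membrane proteins, 2 were higher in MHCII-high cells and none lower. Adam19 was at 41.2 to 159.2 normalized counts in the MHCII-low and at 853.5 to 1971 in the MHCII-high libraries (log2 3.92 ± 0.27, adjusted p = 4.141e-09), and Adam8 was at 48.0 to 203.6 and 197.7 to 1337 (log2 2.30 ± 0.30, adjusted p = 3.335e-05). Neither passed the test against control at 2 weeks in MHCII-low cells (Adam19 adjusted p = 0.9209, Adam8 adjusted p = 0.5282). Adam8 was at 203.6, 129.0 and 166.8 there, above the controls at 117.3 and 73.2. In the plasminogen list, 10 of whose 11 genes were tested, Plau was higher (log2 1.41 ± 0.25, adjusted p = 0.0007918). Plau encodes urokinase, which makes plasmin, an activator of MMP precursors, and it was at 249.7 to 393.6 in the MHCII-low and 449.1 to 1673 in the MHCII-high libraries. Anxa2, a docking protein for plasminogen, was lower (log2 -0.43 ± 0.11, adjusted p = 0.01928), and the other 8 genes did not pass. At 2 weeks against control 0 of the 10 passed in this list and 0 of the 8 ADAMs.

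The list of elastolytic and other matrix proteases had 4 of 8 genes tested, and all 4 were cathepsins that rose in MHCII-low cells at 2 weeks, Ctsk, Ctsb, Ctsl and Ctss, with a median of 1.19 on the log2 scale. Ctsk went from 5705 and 4565 normalized counts in the controls to 23987, 16223 and 20683 (log2 1.97 ± 0.19, adjusted p = 9.586e-07). By MHCII level Ctsk was lower in MHCII-high cells (log2 -0.41 ± 0.12, adjusted p = 0.03908) and the other 3 did not pass. Of 11 MMP substrates of the matrix, 4 rose at 2 weeks in MHCII-low cells, Spp1, Fn1, Lamc1 and Tnc. Spp1, osteopontin, went from 6964 and 7388 to 105620.0, 79824 and 101920.0 (log2 3.73 ± 0.24, adjusted p = 6.375e-09) and Fn1 from 27741 and 32671 to 196439, 201037 and 242793 (log2 2.82 ± 0.23, adjusted p = 1.976e-07). By MHCII level 0 of the 11 passed at 2 weeks, and 3 were higher in MHCII-high cells at 4 weeks and in the mean of both times, where the values were those of Fn1 (log2 0.96 ± 0.15, adjusted p = 0.000199), Lamc1 (log2 0.82 ± 0.14, adjusted p = 0.0006807) and Spp1 (log2 0.67 ± 0.15, adjusted p = 0.008442).

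Of 8 tested activators and partners of MMPs, Bsg, which encodes the MMP inducer basigin, was lower in MHCII-high cells (log2 -0.45 ± 0.13, adjusted p = 0.03658), and 0 of 8 passed at 2 weeks against control. Of 10 AP-1 and NF-kB subunits, Fosb (log2 1.17 ± 0.25, adjusted p = 0.004697) and Jun (log2 0.52 ± 0.14, adjusted p = 0.02845) were higher and Batf (log2 -0.72 ± 0.19, adjusted p = 0.01901) was lower in MHCII-high cells. None of these 10 passed at 2 weeks against control.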

How the data were processed

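RNA-seq was deposited for 14 libraries of sorted lung macrophages. Per the labels' protocols, mRNA was isolated on beads, amplified to cDNA with the NuGen Ovation V2 kit and tagged with Nextera XT, with no molecular identifiers described. Values per gene are normalized counts, a signal the authors deposited after scaling each library. The submitters' processing notes name STAR, DESeq2 and mm10; versions, how reads were assigned to genes and the annotation were not given in the sources used here. The values of each library are whole multiples of 1 step (0.390 to 2.24 normalized counts per read, within 0.05 for 99.86% to 100% of the values up to 3000, depending on the library), so reads were recovered for the count tests. The GC percent and exon length of each gene were used as deposited.

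The 17390 genes that reached 10 normalized counts in 2 or more libraries were tested by limma-trend (limma 3.58.1, R 4.3.3) on log2(value + 1), fitting all 14 libraries together with a coefficient for each group. That scale understates the change of low genes. P-values were Benjamini-Hochberg adjusted within each of 8 comparisons, with a threshold of 0.05. Standard errors follow the ± of log2 fold changes, and SDs that of means. Named are all 10 genes, the 2 genes most like each called one, and up to 2 genes per related list by smallest p, plus genes called in a list. Cell type marker genes beyond these, and the exact choice of values shown, were picked after their values were seen. The 10 genes and all lists were chosen with earlier results of these data known. Gene spans were identical to GENCODE M21 for 8 of the 10 (not Mmp14 and Mmp19). Alternatives were edgeR 4.0.16 and DESeq2 1.42.0 on recovered reads, other scalings, pseudocounts, filters, a GC correction, a covariate, a replicate block and each library left out. The fit was tested on simulated data.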

Additional observations from a re-analysis of the deposited data

How the results depend on the processing

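The 10 genes gave 21 calls over the comparisons, and each was recomputed under 25 alternatives. Of these 525 values 500 kept their direction and side of the threshold, 25 kept their direction but missed the threshold, and 0 reversed. The losses were those of Timp2 at 2 weeks by MHCII level (10), Timp2 from 2 to 4 weeks in MHCII-high cells (13), and Mmp14 and Timp2 against control at 2 weeks without control replicate 1 (1 each). DESeq2 called 1 of the 10 genes in 4-week MHCII-low cells against control, where limma called 0, and 6 in MHCII-high cells at 4 against 2 weeks, where limma called 3. Leaving out 1 library at a time gave 2 to 5 in that last comparison. The cause was not tested.

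For the comparisons by MHCII level and the interaction, the replicate block joined bleomycin libraries of the same time and number. For the others it joined libraries of the same number across all groups, and the labels give no further relation between them. The block changed 0 of the 21 calls and added Mmp2 in MHCII-high cells at 4 against 2 weeks, for 4 genes. Over all genes it called 487 at 2 weeks by MHCII level against 499 without the block, and 16 against 8 in 4-week MHCII-low cells against control. In their deviations from group means, same-numbered MHCII-high and MHCII-low libraries correlated at 0.11, 0.07 and 0.02 at 2 weeks. At 4 weeks the values were 0.01, 0.03 and 0.02. Different-numbered pairs ran from -0.12 to 0.08 at 2 weeks and from -0.03 to 0.02 at 4 weeks. Such correlations cannot show whether same-numbered libraries came from the same mouse, and the labels do not say. Not every library correlated best with its own number.

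The counts over all genes, on which the printed background shares rest, moved by more than 1.5 times under several alternatives. By MHCII level at 2 weeks 499 became 1055 with DESeq2, 207 with the mitochondrial rRNA covariate, 316 with no filter and 203 to 624 with 1 library left out. At 4 weeks 434 became 911 with DESeq2, 282 with no filter and 266 to 480 with 1 left out. For the mean, 1254 became 2122 with DESeq2 and 500 with the covariate. Against control at 2 weeks 332 became 665 with DESeq2, 213 with the covariate and 127 to 406 with 1 left out. At 4 weeks 8 became 74 with DESeq2, 65 with no filter, 2 with edgeR or the covariate and 1 to 17 with 1 left out. At 4 against 2 weeks 149 in MHCII-low cells became 320 with DESeq2 and 95 to 183 with 1 left out, and 186 in MHCII-high cells became 638 with DESeq2, 112 with edgeR, 103 with no filter and 64 to 299 with 1 left out. The interaction went from 0 to 60 with DESeq2 and 0 to 2 with 1 left out. Scaling by library totals without mitochondrial rRNA moved the median log2 fold change of all genes by -0.20 at 2 weeks against control and by 0.13 at 4 against 2 weeks in MHCII-low cells, and the GC correction moved it by 0.14 in the former and 0.12 in the interaction. The scaling moved the share of calls that were higher from 77.7% to 53.7% at 2 weeks against control, from 12.8% to 25.2% in MHCII-low and from 29.0% to 40.4% in MHCII-high cells at 4 against 2 weeks. By MHCII level, the share for both times went from 69.4% to 54.8% with TMM and 57.6% with edgeR, and at 2 weeks from 79.8% to 64.3% with the GC correction. Timp1 and Mmp13 rest on as few as 0 reads and Mmp9 on as few as 10 in a library, so single values of these genes carry a large counting error.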
